A study of Mus musculus with 6 samples.

Results

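The protein genes of the mitochondrial ribosome were examined in B cells from the spleen of BALB/c mice with and without CpG, a synthetic DNA that activates TLR9. Genes were taken by symbol, Mrpl (large subunit) or Mrps (small subunit) followed directly by a digit, and kept where 3 or more samples exceeded the value that 10 reads give. This gave 76 genes, 47 Mrpl and 29 Mrps, of 23420 genes in the deposited values. All 76 genes found by symbol passed the level filter, each in all 6 samples, and the lowest value of any of them was 2.49 log2 CPM against -0.76 log2 CPM for 10 reads. They lie on 17 chromosomes. Of all genes, 11233 passed the filter and were tested.

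B cells had been purified with beads from 3 WT mice aged 7 to 11 weeks and cultured for 4 hours, 10 M cells at a density of 10 M per mL. The 3 CpG-stimulated samples received CpG ODN 1826 at 10 μg/mL and the 3 unstimulated samples none. Both groups were WT with no transgene or deletion, and replicates 1 and 2 of each were labeled female and replicate 3 male. The labels do not say which cultures came from which mouse. The main fit used group only, without pairing by replicate number, so its p values measure the spread between these samples. The values are log2 CPM, that is, log2 of the counts of a gene scaled to a fixed library total (CPM), quantile normalized by the authors. Their most common lowest value, taken here as 0.5 reads, gives a common library of 17.8 M reads.

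Mitochondria keep a small genome that codes for a few subunits of the respiratory chain and ATP synthase, and those mRNAs are translated by a ribosome of their own. Its rRNA comes from mitochondrial DNA, but every one of its proteins is encoded in the nucleus, made on cytosolic ribosomes and imported. The large subunit joins amino acids and releases the new chain through its exit tunnel, and the small subunit holds and decodes the mRNA. Some of its proteins have a counterpart in bacterial ribosomes and others were added in the course of mitochondrial evolution. TLR9 is an endosomal receptor for DNA, and B cells that receive its signal grow before they divide.

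Promoters are shown first for 5 genes that differed in their response to CpG although their promoters share motifs. Each line holds 200 bases of RefSeq sequence on build GRCm38, plus strand, from 170 bases before the RefSeq start to 30 bases after it. Capitals mark exact matches on either strand to CACGTG (an E-box, bound by MYC and related factors), CCGGAAG (core of sites for ETS factors, GABP among them), GCATGCGC (part of the NRF1 site) and AAGATGG (core of the YY1 site).
Mrpl22, chr11:58171494-58171693: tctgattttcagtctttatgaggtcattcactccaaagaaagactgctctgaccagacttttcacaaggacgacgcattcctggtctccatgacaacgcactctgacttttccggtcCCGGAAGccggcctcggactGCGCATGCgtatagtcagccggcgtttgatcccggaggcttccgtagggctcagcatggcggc
Mrpl33, chr5:31613781-31613980: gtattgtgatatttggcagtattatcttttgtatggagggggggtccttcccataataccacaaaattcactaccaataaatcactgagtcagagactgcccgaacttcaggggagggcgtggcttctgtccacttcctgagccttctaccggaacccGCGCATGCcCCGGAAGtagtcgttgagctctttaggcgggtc
Mrpl36, chr13:73330839-73331038: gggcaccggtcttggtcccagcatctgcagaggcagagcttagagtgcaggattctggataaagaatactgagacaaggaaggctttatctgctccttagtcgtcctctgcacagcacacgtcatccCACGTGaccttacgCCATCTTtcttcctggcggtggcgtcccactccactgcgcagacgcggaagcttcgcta
Mrps18a, chr17:46110834-46111033: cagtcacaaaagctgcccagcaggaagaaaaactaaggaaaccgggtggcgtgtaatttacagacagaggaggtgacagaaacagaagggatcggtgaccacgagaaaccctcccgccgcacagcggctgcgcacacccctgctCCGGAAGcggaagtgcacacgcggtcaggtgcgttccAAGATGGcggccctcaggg
Mrps18c, chr5:100798589-100798788: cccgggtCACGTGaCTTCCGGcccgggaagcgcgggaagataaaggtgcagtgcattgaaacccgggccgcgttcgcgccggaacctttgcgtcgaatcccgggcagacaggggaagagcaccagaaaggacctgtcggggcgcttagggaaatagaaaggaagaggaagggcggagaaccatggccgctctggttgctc

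Mrpl22 and Mrpl33 both held an ETS core and the NRF1 letters close to the start, at -53 and -33 in Mrpl22 and at -3 and -12 in Mrpl33, counted from the start to the first base of the match. The log2FC (difference in log2 CPM, CpG-stimulated minus unstimulated) was 1.49 for Mrpl22 and 0.09 for Mrpl33. Mrps18a and Mrps18c code for related proteins and both held an ETS core, at -26 and -156, with log2FC of 1.07 and -0.20. These matches are letters in a window and do not show that a factor was bound.

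Over the gene set, 67 of 76 genes had a promoter window of 300 bases in RefSeq (250 before the start and 50 after), with no window for 9 genes. The ETS core was found in 22 of the 67 promoters (32.8%), and in 18 of these it lay within 60 bases of the start. It was present in 19.9% of the promoters of tested genes and in 9.14% of all promoters of the table. The YY1 core was found in 13 promoters (19.4%, against 7.69% of tested and 6.46% of all promoters), 8 of them with a match after the start, where its letters ATG may also be a start codon. The NRF1 letters were found in 8 promoters (11.9%, against 6.01% and 2.80%), and as they hold a palindrome, overlapping matches on both strands occur. The E-box was found in 5 (7.46%, against 10.8% and 7.24%) and TATAAA in 4 (5.97%, against 6.69% and 14.2%). Genes of the set with the ETS core had a median log2FC of 0.77 and those without it 0.89, while the medians were 1.01 and 0.86 with and without the YY1 core. They were 0.61 and 0.89 for the NRF1 letters, 0.97 and 0.86 for the E-box and 1.13 and 0.87 for TATAAA. Over tested genes with a window, the medians ranged from 0.06 to 0.13 with a motif and from -0.04 to -0.02 without it. These differences were not tested. The median GC content was 58% in the set and 61% in the promoters of tested genes.

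Expression of the mitochondrial ribosomal proteins was higher after CpG in most genes of both subunits. At an FDR under 0.05 (limma, Benjamini-Hochberg over 11233 genes), 67 of 76 genes rose, 2 fell and 7 did not pass the test. Among all tested genes, 37.6% rose and 36.7% fell. The median log2FC of the set was 0.87 with quartiles of 0.62 and 1.12 and a range from -0.28 to 1.76, beside a median of 0.003 over all tested genes. The log2FC exceeded 1 in 29 of the genes that rose, against 15.8% of all tested genes, lay between 0.5 and 1 in 31 and was under 0.5 in 7. The 3 stimulated values were all above the 3 unstimulated values in 66 genes, against 39.1% of all tested genes, and all below in 3. Only 15 of the 29 genes passed a test against a log2FC of 1.

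**Figure D1:**
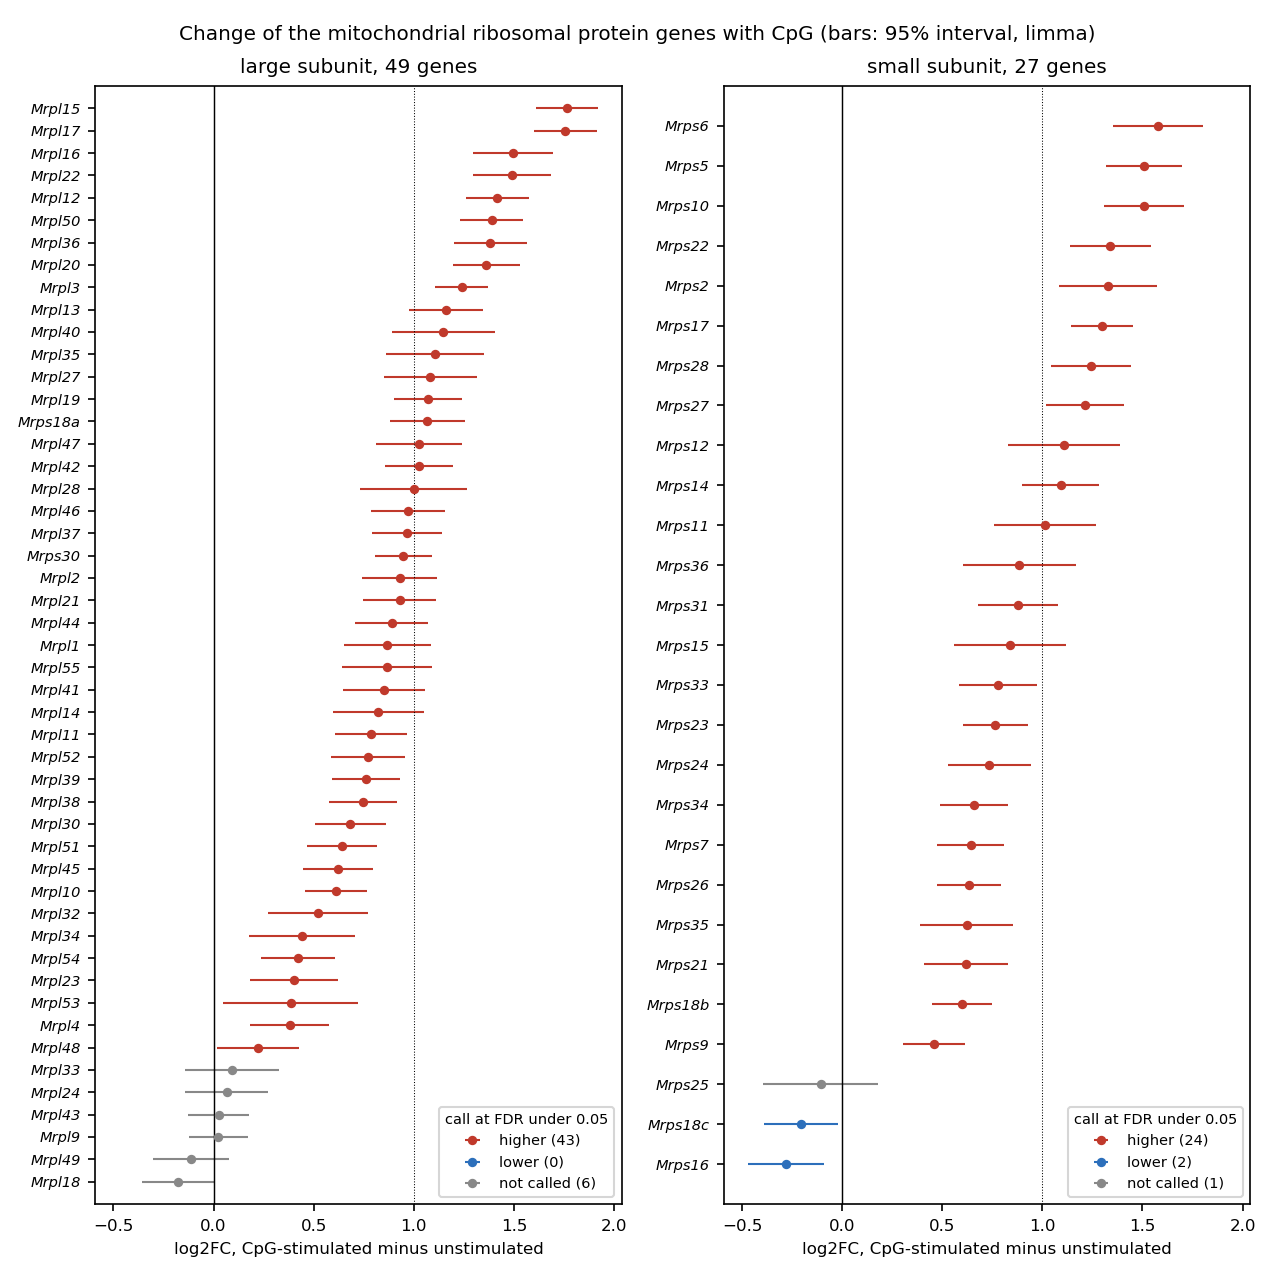
log2FC (x axis) of the 49 large subunit genes (left) and 27 small subunit genes (right), sorted, with 95% intervals from limma as bars and colors for the call at FDR under 0.05; the dotted line marks a log2FC of 1. In the large subunit 43 genes rose and none fell, and in the small subunit 24 rose and 2, Mrps16 and Mrps18c, fell.

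The values of the gene set summed to 3307, 3349 and 3319 CPM in the stimulated samples and to 1835, 1865 and 1792 CPM in the unstimulated ones. The means were 3325 ± 21.8 and 1830 ± 36.7 CPM (SD, n = 3), a ratio of 1.82. Each stimulated sample was thus above each unstimulated sample, and the set took up 0.327% to 0.336% of all CPM with CpG and 0.179% to 0.188% without. The median SD between replicates was 0.07 with CpG and 0.09 without on the log2 scale, and the median SE of a log2FC was 0.08. As the values are shares of each library, total RNA per cell is not in them, and in bulk samples fewer cells of a type cannot be told apart from less RNA per cell.

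The largest changes were those of Mrpl15 (uL15m) and Mrpl17 (bL17m), both proteins of the large subunit with bacterial counterparts. Mrpl15 (chr1:4773206-4785739, minus strand) had 6.60, 6.57 and 6.69 log2 CPM with CpG and 4.88, 4.79 and 4.91 without. The log2FC was 1.76 with an SE of 0.07 and an FDR of 2.9e-08, a fold of 3.40. All stimulated values lay far above the unstimulated ones, and the spread within each group was small beside the difference. Mrpl17 (chr7:105803206-105811099, minus strand) had 6.71, 6.77 and 6.67 log2 CPM with CpG and 5.06, 4.93 and 4.89 without, a log2FC of 1.76 with an SE of 0.07 (FDR = 3.21e-08). Its groups were likewise apart.

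In the small subunit, Mrps6 (bS6m) had the largest change, from 3.39, 3.48 and 3.18 log2 CPM without CpG to 4.98, 4.88 and 4.92 with it (log2FC 1.58 ± 0.10 SE, FDR = 3.66e-07). Every stimulated value was higher than every unstimulated value. Of its 75-base stretches, 15.9% also occur in other annotated genes, most often in Gm49711. The exons of Mrps6 overlap those of Gm49711 and Slc5a3 on the same strand. Some of its reads may therefore have been counted elsewhere or not at all. Mrps10 (uS10m) rose from 3.39, 3.46 and 3.45 to 5.02, 4.95 and 4.85 log2 CPM (log2FC 1.51 ± 0.09 SE, FDR = 2.13e-07), with no overlap between the groups. The other genes among the 10 largest changes were Mrps5 (1.51), Mrpl16 (1.50), Mrpl22 (1.49), Mrpl12 (1.42), Mrpl50 (1.39) and Mrpl36 (1.38), each with groups apart.

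**Figure D2:**
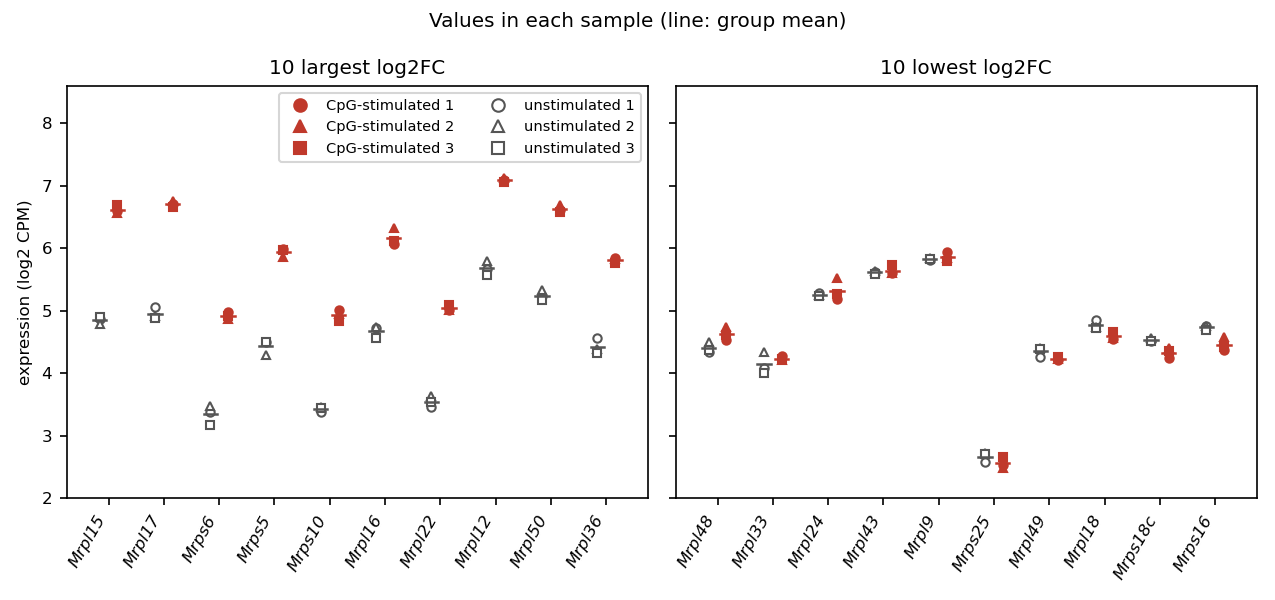
Values in each sample (log2 CPM, y axis) of the genes with the 10 largest (left) and the 10 lowest (right) log2FC; red symbols are CpG-stimulated and open symbols unstimulated samples, shapes are replicate numbers and lines are group means. On the left all stimulated values are above the unstimulated ones, while on the right the groups lie close together and Mrpl18, Mrps18c and Mrps16 have all stimulated values below.

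Changes were described by where the proteins sit in the ribosome. Around the catalytic centre, where peptide bonds are made, all 4 genes considered rose: Mrpl16 (uL16m) by 1.50, Mrpl3 (uL3m) by 1.24, Mrpl2 (uL2m) by 0.93 and Mrpl4 (uL4m) by 0.38 on the log2 scale. At the rim of the exit tunnel, from which the new chain leaves toward the inner membrane, 5 of 6 rose, with log2FC of 1.76 for Mrpl17, 1.49 for Mrpl22, 1.03 for Mrpl47, 0.62 for Mrpl45 and 0.40 for Mrpl23. The remaining tunnel protein, Mrpl24 (uL24m), had 5.19, 5.52 and 5.27 log2 CPM with CpG and 5.29, 5.25 and 5.23 without, a log2FC of 0.07 (95% interval -0.14 to 0.27, FDR = 0.535). Its groups overlapped. Its exons overlap those of Rrnad1 on the other strand by 594 bases.

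The stalk, which recruits translation factors, is built from Mrpl10, Mrpl11 and Mrpl12, and all 3 rose, by 0.61, 0.78 and 1.42 on the log2 scale. Mrpl12 (bL12m, the stalk protein that occurs in several copies) had 7.10, 7.13 and 7.07 log2 CPM with CpG and 5.67, 5.80 and 5.58 without (SE 0.07, FDR = 8.09e-08). Its groups were far apart. In the central protuberance, which faces the small subunit, 4 of 5 rose: Mrpl40 by 1.15, Mrpl46 by 0.97, Mrpl38 by 0.75 and Mrpl48 by 0.22. Mrpl18 (uL18m), its other protein considered, had 4.56, 4.57 and 4.66 log2 CPM with CpG and 4.85, 4.74 and 4.73 without (log2FC -0.18 ± 0.08 SE, FDR = 0.0669). All its stimulated values were below its unstimulated ones, but the difference did not pass the FDR.

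In the small subunit, 3 genes for proteins along the mRNA path and at the decoding site rose: Mrps5 (uS5m) by 1.51, Mrps12 (uS12m) by 1.11 and Mrps24 (uS3m) by 0.73. The S18 family has 3 genes, of which Mrps18b and Mrps18c code for proteins of the small subunit and Mrps18a, despite its symbol, for a protein of the large subunit. Mrps18a had 5.07, 5.08 and 4.98 log2 CPM with CpG and 3.91, 4.08 and 3.94 without (log2FC 1.07 ± 0.08 SE, FDR = 1.49e-06), and Mrps18b had 6.21, 6.08 and 6.17 against 5.60, 5.55 and 5.51 (log2FC 0.60 ± 0.07 SE, FDR = 1.8e-05). Both were higher with CpG without overlap. Mrps18c (chr5:100798627-100804471, plus strand) had 4.25, 4.40 and 4.36 log2 CPM with CpG and 4.53, 4.57 and 4.52 without, a log2FC of -0.20 with an interval from -0.39 to -0.02 (FDR = 0.0464). It thus fell, again without overlap, but only just passed the FDR and lost it in 5 of 6 fits that left out 1 sample.

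**Figure D3:**
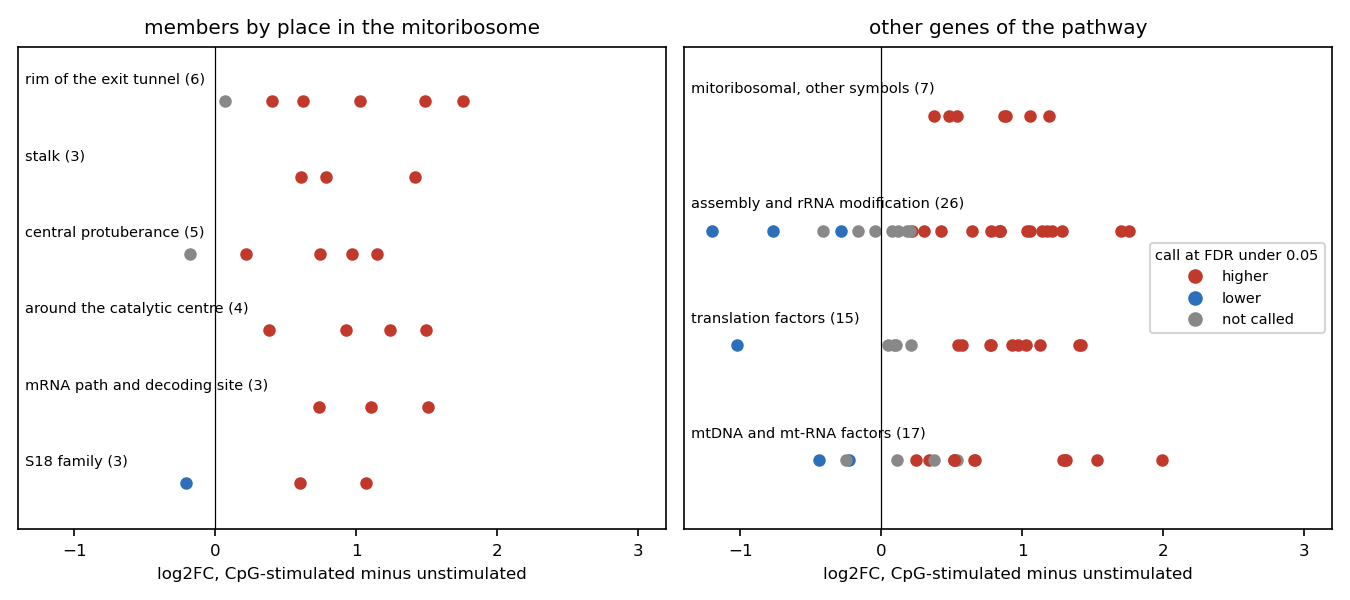
log2FC (x axis) of genes grouped by place in the mitochondrial ribosome (left) and of other genes of the pathway (right), with the number of genes in parentheses and colors for the call at FDR under 0.05. Most points lie to the right of 0 in each row, with Mrps18c at -0.20 on the left and Mettl15 at -1.20 and Oxa1l at -1.02 on the right.

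Mrps16 (bS16m, chr14:20389304-20393634, minus strand) was the other gene that fell. It had 4.37, 4.58 and 4.42 log2 CPM with CpG and 4.76, 4.76 and 4.70 without, a log2FC of -0.28 with an interval from -0.47 to -0.09 (FDR = 0.0129). All its stimulated values were below the unstimulated ones. Mrps16 shares no exon with another gene and none of its 75-base stretches occur elsewhere in the annotation, and its protein is part of the conserved core of the small subunit.

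Besides Mrpl18 and Mrpl24, the genes that did not pass the test were Mrpl49, Mrps25, Mrpl9, Mrpl43 and Mrpl33, all with overlapping groups. Mrpl9 had 5.94, 5.84 and 5.80 log2 CPM with CpG and 5.82, 5.86 and 5.83 without, a log2FC of 0.02 with an interval from -0.12 to 0.17 (FDR = 0.751). Mrpl43 had 5.60, 5.60 and 5.73 against 5.63, 5.64 and 5.59 log2 CPM, a log2FC of 0.03 with an interval from -0.13 to 0.18 (FDR = 0.755). These intervals lie below the median log2FC of the set. For Mrpl33, Mrps25 and Mrpl49 the log2FC was 0.09, -0.11 and -0.11, and their intervals reached up to 0.32, 0.18 and 0.08.

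Of the 7 genes that did not pass the test, 6 overlap exons of a gene on the other strand. The library kit named in the methods is stranded, but whether reads were counted by strand is not given in the sources used here, and without it reads of both genes cannot be told apart. Of 20 genes whose exons overlap exons on the opposite strand, 14 rose and 6 did not pass the test. Of the other 56, 53 rose, 2 fell and 1, Mrpl33, did not pass. The medians were 0.86 and 0.87. Among the 10 lowest log2FC of the set 7 had such an overlap, and among the 10 largest 1 had it. Mrpl43 (chr19:45004829-45006442) overlaps Twnk, the mitochondrial helicase gene, by 507 bases, and Twnk, listed as Peo1, had a log2FC of 1.29. Mrps25 (chr6:92169525-92184033) overlaps Nr2c2, a nuclear receptor gene, by 4590 bases, and Nr2c2 had a log2FC of -1.50. The part of these overlaps in the values was not tested. With genes left out that overlap any exon or share at least 10% of their 75-base stretches, 45 of 48 rose and 2 fell, with a median log2FC of 0.87.

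For Mrpl53, 78.8% of 75-base stretches occur in another annotated gene, Gm42688, and its values are therefore uncertain. Mrpl53 had 3.44, 3.88 and 3.67 log2 CPM with CpG and 3.12, 3.54 and 3.18 without (log2FC 0.38 ± 0.15 SE, FDR = 0.04). It was the only gene called higher whose groups overlapped, as replicate 1 with CpG was below replicate 2 without. The call was lost in 4 of the 6 fits that left out 1 sample, as was that of Mrpl48 (log2FC 0.22, FDR = 0.0479).

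Large and small subunit genes had like medians. With Mrps18a and Mrps30 counted with the large subunit, where their proteins sit, the median log2FC was 0.87 over 49 large subunit genes and 0.84 over 27 small subunit genes, Mrps36 counted among these by its symbol. Mrps30 (mL65) had 6.53, 6.50 and 6.43 log2 CPM with CpG and 5.51, 5.58 and 5.53 without (log2FC 0.95, FDR = 4.62e-07). Mrps36, whose protein is now known as a part of the 2-oxoglutarate dehydrogenase complex rather than of the ribosome, had 4.10, 3.98 and 4.05 against 2.93, 3.38 and 3.16 log2 CPM (log2FC 0.89, FDR = 0.000115). Both rose without overlap of the groups. Without Mrps36 the small subunit had 26 genes, of which 23 rose and 2 fell, with a median log2FC of 0.81.

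The 45 genes listed with a bacterial counterpart had a median log2FC of 1.0, and 23 of them were over 1. Of the 31 without a listed counterpart, 6 were over 1 and the median was 0.77. The direction was alike, as 39 of 45 and 28 of 31 rose, and both genes that fell have a counterpart. The difference between these groups of genes was not tested. In the group without counterpart Mrpl50 had the largest change, from 5.24, 5.33 and 5.17 to 6.62, 6.70 and 6.58 log2 CPM (log2FC 1.39).

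Levels of different genes were compared per kb of the longest principal transcript. On this log2 CPM per kb scale the median level of the set was 3.88 in unstimulated and 4.85 in stimulated samples. The highest mean levels over all samples were those of Mrpl52, Mrpl12 and Mrpl30, at 6.07, 5.99 and 5.91 log2 CPM per kb. These 3 were also the highest with CpG, with Mrpl12 first at 6.70, whereas without CpG the order was Mrpl52, Mrpl54 and Mrpl30 (5.68, 5.62 and 5.57) and Mrpl12 was at rank 7 (5.28). The lowest were those of Mrps25, Mrps35 and Mrpl47, at 0.01, 2.16 and 2.21, which also have long annotated transcripts of 6073, 4162 and 3364 bases. Mrps25 was the lowest in both groups, followed upward by Mrps35 and Mrpl48 with CpG and by Mrpl47 and Mrpl35 without. Levels in both groups were correlated (Pearson's r = 0.908 across 76 genes, which are not independent). The SD among genes was 1.11 without and 1.10 with CpG.

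**Figure D4:**
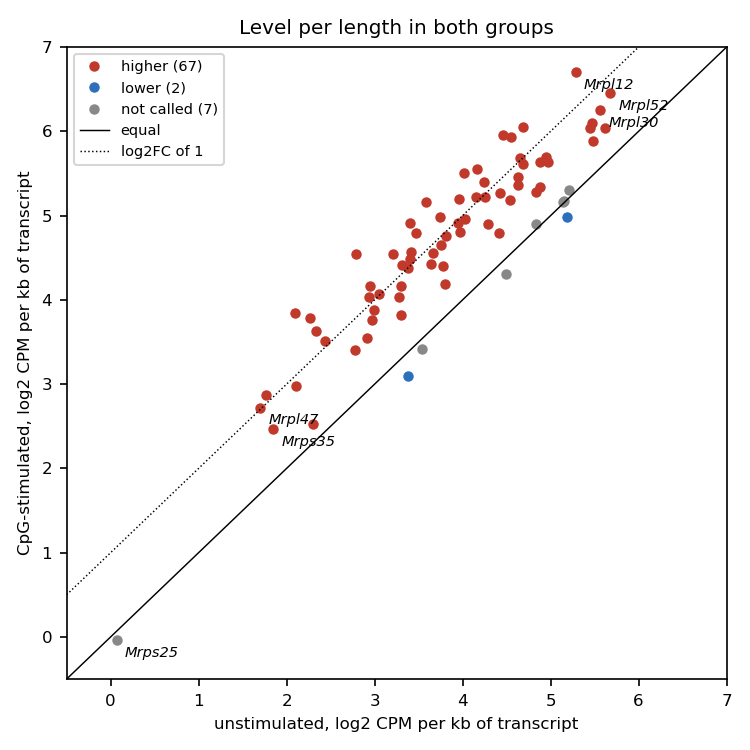
Mean level per kb of transcript (log2 CPM per kb) in CpG-stimulated (y axis) against unstimulated samples (x axis), 1 point per gene, colored by call at FDR under 0.05; the solid line marks equal levels and the dotted line a log2FC of 1. Most of the 67 genes that rose lie between the lines or just above the dotted line, and the 9 others lie near the solid line.

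Further proteins of the mitochondrial ribosome have other symbols, and all 7 of those listed rose, against 37.6% of all tested genes. Their median log2FC was 0.87. The lowest was Dap3 (mS29, a GTP-binding protein of the small subunit), with 5.66, 5.57 and 5.55 log2 CPM with CpG and 5.25, 5.16 and 5.25 without (log2FC 0.37, FDR = 0.000809). The largest was Ptcd3 (mS39), with 6.96, 6.81 and 6.82 against 5.76, 5.67 and 5.59 log2 CPM (log2FC 1.19, FDR = 2.67e-07). The groups did not overlap in any of the 7.

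Factors that build the ribosome or modify its rRNA rose in 16 of 26 cases (61.5%) and fell in 3 (11.5%), with a median log2FC of 0.53. Over all tested genes the shares were 37.6% and 36.7%. The largest was Rnmtl1 (now Mrm3, an rRNA methyltransferase), with 4.68, 4.50 and 4.72 log2 CPM with CpG and 3.003, 2.93 and 2.70 without (log2FC 1.76, FDR = 4.43e-07). Mettl15, also an rRNA methyltransferase, was the lowest, with 0.95, -0.13 and 0.47 against 1.75, 1.62 and 1.53 log2 CPM (log2FC -1.20, FDR = 0.00301). Its stimulated values were all below its unstimulated ones but varied widely.

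Of 15 translation factors and related genes, 10 rose (66.7%, against 37.6% of all tested genes) and 1 fell (6.67%, against 36.7%). Their median log2FC was 0.77. The elongation factor Tufm had 7.03, 6.82 and 7.03 log2 CPM with CpG and 6.08, 5.97 and 5.92 without (log2FC 0.97, FDR = 1.92e-06), and Tsfm, its nucleotide exchange factor, had the largest log2FC, 1.41 (FDR = 1.01e-06). Lrpprc, which stabilizes mitochondrial mRNAs, rose by 1.03 on the log2 scale (FDR = 1.47e-05). Oxa1l, which inserts newly made proteins into the inner membrane and binds the ribosome at its exit tunnel, went the other way. It had 5.20, 5.22 and 5.33 log2 CPM with CpG and 6.36, 6.21 and 6.24 without (log2FC -1.02, FDR = 7.03e-07), and its groups were far apart.

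Of 17 genes for mtDNA upkeep and mitochondrial RNA, 11 rose (64.7%, against 37.6% of all tested genes) and 2 fell (11.8%, against 36.7%). Their median log2FC was 0.52. Tefm, the elongation factor of mitochondrial transcription, had 3.83, 3.88 and 3.57 log2 CPM with CpG and 1.79, 1.62 and 1.89 without (log2FC 1.99, FDR = 6.93e-07). The RNA polymerase gene Polrmt rose by 0.25 on the log2 scale (FDR = 0.0236). Both genes that fell act on mtDNA: Polg, the DNA polymerase, had a log2FC of -0.44 (FDR = 0.00026), and Tfam, which packs mtDNA and starts its transcription, had 6.17, 6.33 and 6.23 against 6.41, 6.55 and 6.47 log2 CPM (log2FC -0.23, FDR = 0.0115). The groups did not overlap for either. None of the 15 listed genes encoded by mtDNA was found by symbol in the deposited values, so their RNAs were not analysed here.

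Genes for the proteins of the cytosolic ribosome took a smaller share with CpG. Of 75 tested, 4 rose (5.33%) and 38 fell (50.7%), with a median log2FC of -0.19. Among all tested genes 37.6% rose and 36.7% fell. They summed to between 82063 and 90487 CPM with CpG and between 98899 and 99987 CPM without, a ratio of 0.861, beside 1.82 for the mitochondrial set. The lowest was Rps20 (log2FC -0.64) and the largest Rps27l, a paralog of Rps27 (log2FC 1.49).

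**Figure D5:**
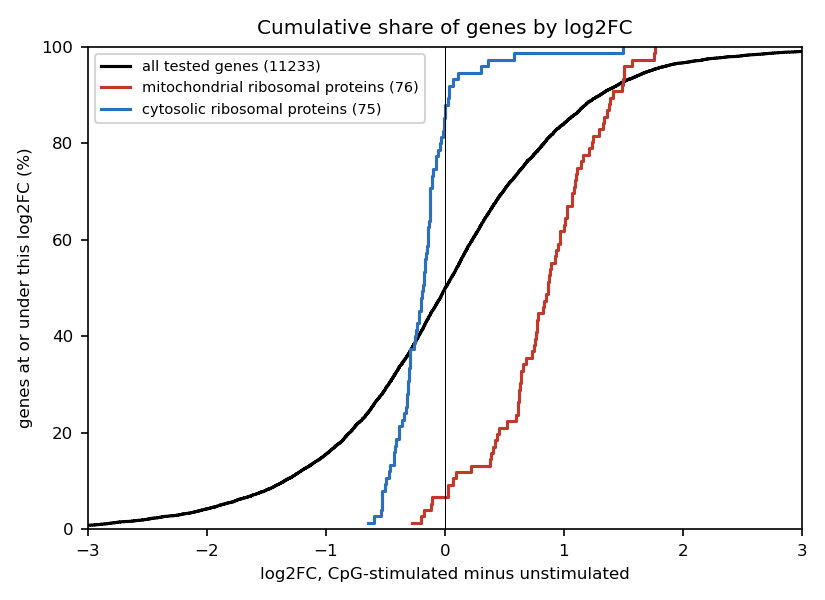
Cumulative share of genes (%, y axis) at or under each log2FC (x axis) for the 76 mitochondrial ribosomal proteins, 75 cytosolic ribosomal proteins and all 11233 tested genes; the axis is limited to log2FC between -3 and 3. The medians are 0.87, -0.19 and 0.003, and the curves of both sets of ribosomal proteins are steeper than that of all genes.

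In 25 genes of the set another gene starts nearby on the opposite strand, from 1000 bases before the start to 500 bases after it. Where the neighbor starts after it, both genes overlap at their starts. Mrpl46 and Mrps11 are such overlapping neighbors of each other, share 173 exonic bases and had log2FC of 0.97 and 1.01. Of the 22 tested neighbors outside the set, 13 rose and 5 fell, 4 were over a log2FC of 1 and the median was 0.37. The shares over all tested genes were 37.6%, 36.7% and 15.8%, respectively, with a median of 0.003. The 25 genes themselves had a median of 0.93, and 23 of them rose. Mrps5 and its neighbor Zfp661 had like log2FC, 1.51 and 1.47, whereas Mrpl2 rose by 0.93 and its neighbor Klc4 had a log2FC of -1.28. Mrps18c, which fell, starts 29 bases from Helq, a DNA helicase gene with a log2FC of -1.06.

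The samples were checked against markers of the sorted cells and of others. All 6 B cell markers were found in every sample, although Cd79a, Cd79b and Pax5 fell with CpG, and their summed level was 2349 to 2685 CPM with CpG and 3260 to 3866 CPM without. Markers of T cells (6 genes) and NK cells (4) did not reach the level filter in any gene, and Klra8 had no reads in any sample. The NK marker Klrb1c was over -0.76 log2 CPM in CpG-stimulated replicates 2 and 3 only. It had -0.84, 0.23 and 0.23 log2 CPM with CpG and -4.27, -4.79 and -4.90 without, and was not tested. T cell markers summed to at most 0.632 CPM with CpG and 0.604 CPM without, and NK cell markers to 0.722 to 1.32 CPM and 0.125 to 0.127 CPM. Myeloid markers (5 of 6 tested) summed to 10.4 to 15.5 CPM with CpG and 7.36 to 14.0 CPM without. Of these 5, Cd14 and Csf1r fell (log2FC -1.73 and -1.61, FDR = 0.0043 and 0.018) and Emr1 rose (log2FC 0.83, FDR = 0.00811). Erythroid genes were highest in replicate 2 of both groups, with sums of 4980 and 3914 CPM against 397 to 627 CPM in the other samples, and none of the 5 was called between the groups. At these sums the markers of T, NK and myeloid cells were near 0 beside those of B cells. Without replicate 2 of both groups 66 genes of the mitochondrial set rose, 1 fell, and the median log2FC was 0.90.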

How the data were processed

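RNA-seq of 3 CpG-stimulated and 3 unstimulated samples was used. The authors aligned reads to mm10 (GRCm38) with STAR (2.6.1a in the submitters' processing notes), counted them per gene with featureCounts (Subread 2.0.1), and quantile normalized them with voom. The deposited values are log2 CPM, not counts. The most common lowest value, -5.15, was taken as 0.5 reads, which gives a common library of 17.8 M reads and -0.76 for 10 reads. The depth of each sample before normalization is unknown.

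Genes over 10 reads in at least 3 samples were fitted with limma 3.58.1 in R 4.3.3 (lmFit, eBayes with trend, group only, two-sided), with Benjamini-Hochberg FDR over 11233 genes. An exact permutation test of 3 against 3 samples cannot go below p = 0.1 and was not used. The procedure was tested on simulated data. Coordinates, transcripts, exon overlaps and shared 75-base stretches came from GENCODE M21 and promoters from RefSeq (GRCm38.p6); Python 3.11.15 was used.

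Members and lists were chosen with earlier results of these data known. Named genes were the 10 largest and 10 lowest log2FC, the 3 highest and 3 lowest levels per kb, Mrps18a, Mrps18b, Mrps18c, Mrps30, Mrps36, Tfam, Tufm, Dap3, Polrmt and Lrpprc, members whose call changed with the block or 1 sample left out (if at most 5), and the extremes of each pathway list. Genes by place in the ribosome, neighbors, overlapping genes and promoters shown were chosen after their values were seen.

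Deviations from group means correlated at 0.435, 0.224 and 0.300 between samples with the same replicate number and at -0.281 to 0.0279 otherwise. The numbers were therefore taken to pair the samples. This pairing entered the replicate block, run as an alternative, and not the main fit. The deposited values also hold an offset common to same-numbered samples. It was measured in genes whose same-numbered samples differed by more than a fixed margin while all samples of the other numbers held the same value. The lower sample of the pair lay below that value by 0.167 of the difference within the pair (median of 480 genes).

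Alternatives were the filter, log2(CPM + 1), the replicate block, the variance trend, centring on sample medians, a test against a log2FC of 1, each sample left out, and, added after seeing the data, replicate 2 of both groups left out.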

Additional observations from a re-analysis of the deposited data

Results flagged for a closer look

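For Mrpl43 the male pair and both female pairs of samples went in opposite directions, with small differences. CpG-stimulated minus unstimulated was 0.144 on the log2 scale in replicate 3, labeled male. In replicates 1 and 2, labeled female, the stimulated values (5.602 and 5.600 log2 CPM) were slightly below the unstimulated ones (5.631 and 5.640). The SD between replicates was 0.076 with CpG and 0.027 without. The difference was not tested, and with 1 male pair sex and replicate cannot be told apart.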

How the results depend on the processing

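The counts of genes of the set that rose (64 to 67) and the median log2FC kept their direction under each alternative run over the filter, scale, block, variance trend, centring and samples, and the genes called higher in them were all among the 67. With the replicate block 67 genes rose, 2 fell and 29 were over a log2FC of 1, and no call of the set changed. The number that fell was 1 to 2 when samples were left out in turn, and 1 without replicate 2 of both groups. The call of Mrps18c was lost without each sample other than replicate 2 with CpG. A test against a log2FC of 1 gave 15 genes rather than 29, as it asks for more. Of the genes for mtDNA upkeep and mitochondrial RNA, 1 to 3 fell when samples were left out in turn, 1 without unstimulated replicate 2 and 3 without CpG-stimulated replicate 2, and 3 fell with the replicate block; the cause was not tested. Genes near 0 changed sign when samples were left out: Mrpl24 ranged from -0.032 (without CpG-stimulated replicate 2) to 0.136 and was -0.035 without replicate 2 of both groups, Mrpl43 ranged from -0.019 (without CpG-stimulated replicate 3) to 0.0475, and Mrpl9 from -0.0148 (without CpG-stimulated replicate 1) to 0.0537. Mrpl34, Mrpl53 and Mrpl48 lost their call without a filter on low values. The number of cytosolic ribosomal protein genes that fell, 38 above, ranged from 26 without that filter to 52 without CpG-stimulated replicate 2. It was 46 without replicate 2 of both groups. DESeq2 and other scalings of counts were not run, since the values are not counts. Quantile normalization leaves neither the depth of each sample nor total RNA per cell in the values, and with 3 samples a group small changes may have been missed.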
